A study of Mus musculus with 4 samples.

Results

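The genes described here are 51 mouse genes whose loss or mutation is known to cause deafness, from the actin motors and links of the hair bundle to ion transport, junction and signalling genes. They were chosen by symbol, and each was matched through its GENCODE symbol to 1 of the 52636 gene identifiers counted in the study. Their expression was measured by RNA-seq in otic cells of mouse otocysts, closed epithelial vesicles that give rise to the inner ear, purified by fluorescence-activated sorting. The 4 libraries fall into 2 control libraries and 2 labelled Brg1cKO, from otocysts with a conditional knockout of Brg1. Brg1, encoded by Smarca4, is the ATPase of the SWI/SNF chromatin remodelling complex. Each library came from 3000 cells and random-primed, strand-specific SMART-seq cDNA, read over 75 bases from a single end. The sources used here do not give strain, stage, sorting marker or Cre line. Nor do they say whether the replicates are separate embryos or sorts, and the p-values then measure the spread between these libraries alone, which may be technical. Below, the control pair and the Brg1cKO pair stand for the libraries under those labels.

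Hearing depends on hair cells, whose apical bundle of actin-filled stereocilia is deflected by sound. Extracellular links made of cadherins join neighbouring stereocilia and pull open the mechanotransduction channel, myosins and scaffold proteins assemble the bundle, and synaptic proteins pass the signal to neurons. The surrounding epithelium and the stria vascularis keep the potassium-rich endolymph through gap junctions, channels and tight junctions. In the otocyst, hair cells have not yet formed, and the epithelium still consists of progenitors that give rise to sensory, nonsensory and neuronal cells.

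Upstream sequence is shown for 4 of the genes, taken from those expressed in both groups and those expressed in neither group. Each is the 250 bases before the most upstream RefSeq start of the gene (GRCm38.p6, the patched mm10 assembly), on the strand of the gene, 5′ to 3′, with every CG dinucleotide in capitals. Whrn (chr4:63495992-63496241, minus strand) and Ednrb (chr14:103843702-103843951, minus strand) were expressed in both groups, while Slc26a5 (chr5:21865605-21865854, minus strand) and Tmc1 (chr19:20954203-20954452, minus strand) were expressed in neither. The Ednrb stretch lies inside the GENCODE span of the gene (chr14:103814625-103844402), which starts further upstream than the RefSeq entry. The stretches of Whrn, Slc26a5 and Tmc1 directly adjoin the GENCODE start.

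Whrn: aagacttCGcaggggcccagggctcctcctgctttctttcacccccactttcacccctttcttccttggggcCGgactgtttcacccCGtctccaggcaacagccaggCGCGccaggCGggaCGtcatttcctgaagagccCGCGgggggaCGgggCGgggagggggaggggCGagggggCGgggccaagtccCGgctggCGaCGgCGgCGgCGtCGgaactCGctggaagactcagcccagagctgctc

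Ednrb: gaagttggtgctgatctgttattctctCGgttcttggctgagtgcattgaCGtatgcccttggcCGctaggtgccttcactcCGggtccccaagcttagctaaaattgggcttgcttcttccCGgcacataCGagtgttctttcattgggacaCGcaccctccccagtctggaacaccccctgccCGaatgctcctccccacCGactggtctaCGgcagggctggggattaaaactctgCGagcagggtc

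Slc26a5: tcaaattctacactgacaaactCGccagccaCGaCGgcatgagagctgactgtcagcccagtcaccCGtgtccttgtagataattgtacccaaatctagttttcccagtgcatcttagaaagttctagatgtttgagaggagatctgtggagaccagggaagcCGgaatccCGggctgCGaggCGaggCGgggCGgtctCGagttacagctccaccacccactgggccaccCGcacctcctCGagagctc

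Tmc1: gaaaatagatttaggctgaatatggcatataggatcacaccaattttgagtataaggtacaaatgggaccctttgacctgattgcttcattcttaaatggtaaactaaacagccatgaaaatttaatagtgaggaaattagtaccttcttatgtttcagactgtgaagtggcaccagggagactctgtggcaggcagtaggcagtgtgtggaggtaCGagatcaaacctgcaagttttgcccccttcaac

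The 4 sequences hold 21, 11, 13 and 1 CG dinucleotides, in the order printed. RefSeq upstream sequence was matched for 41 of the 51 genes, and for them the median was 11 CG dinucleotides, from 1 to 43. Over all 27025 genes of the RefSeq table the median was 6, and 38.2% held 10 or more. A gene was counted as expressed in a group where both libraries reached 1 CPM, the reads of a gene scaled to the library total after TMM normalization. Of the 17 matched genes expressed in both groups, 14 held 10 or more CG dinucleotides (82.4%), with a median of 14. Triobp, with 2, Hgf, with 4, and Myo7a, with 6, were the exceptions. Each of these has 2 RefSeq starts, of which only the most upstream was counted. Among the 14, Marveld2 and Serpinb6a also have 2 starts and Espn has 3. The 9 matched genes expressed in 1 group had a median of 15, and 5 of them held 10 or more (55.6%). Of the 15 matched genes expressed in neither group, 4 held 10 or more (26.7%), with a median of 5. Those 4 were Tmie, with 33, Lhfpl5, with 24, Slc26a5, with 13, and Myo3a, with 11. These counts describe the sequence and were not tested against expression. The same shares over all expressed and all unexpressed genes were not computed. No upstream sequence was matched for Diaph1, Ptprq, Loxhd1, Otof, Kcnq1, Kcne1, Pou4f3, Grhl2, Crym and Ush1g.

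**Figure D1:**
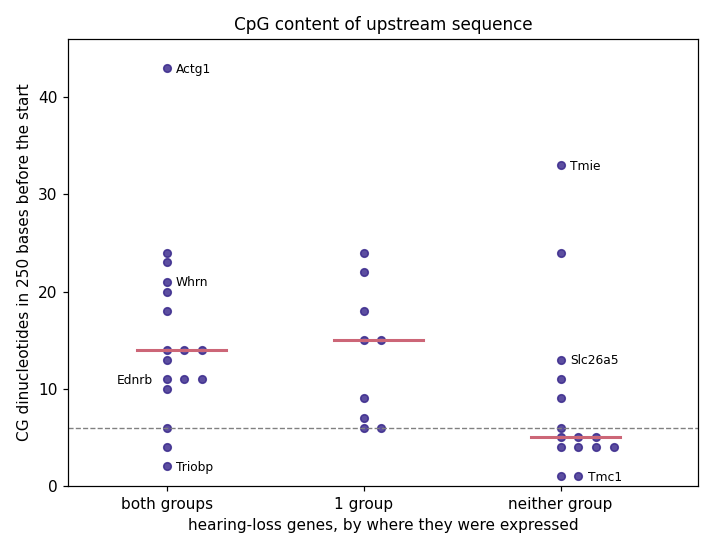
CG dinucleotides in the 250 bases before the start (y axis) of the 41 deafness genes with RefSeq upstream sequence, by whether both groups, 1 group or neither group expressed them (x axis). Each point is a gene, the thick bars are the group medians of 14, 15 and 5, and the dashed line is the median of 6 over all genes.

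The libraries held 15357265 and 19132360 reads in genes for the control pair and 29361382 and 25875555 for the Brg1cKO pair. Smarca4, the targeted gene (mm10 chr9:21616169-21704230), stood at 816 and 815 CPM in the control pair and 891 and 848 CPM in the Brg1cKO pair. Its log2 fold change was 0.09 (SE 0.0995, 95% interval -0.14 to 0.33, adjusted p = 0.817 by edgeR's quasi-likelihood test with Benjamini-Hochberg adjustment). The count covers the whole gene, and reads outside a deleted part would still be counted, so it checks the labels little. The directions given below therefore rest on the labels alone. Summed markers of the otic epithelium (12 genes) were 1470 and 1641 CPM in the control pair and 277 and 273 CPM in the Brg1cKO pair. A large part of that difference was Oc90 alone, at 782 and 732 CPM against 44.6 and 49.1 CPM. Macrophage markers (12 genes) summed to 347 and 337 CPM against 1571 and 1497 CPM, and cardiac and striated muscle markers (9 genes) to 192 and 118 CPM against 870 and 871 CPM. Head mesenchyme markers (10 genes) were high in both pairs, at 3847 and 4106 CPM against 3018 and 3055 CPM. Sums of different lists are not shares of cells, and which cells held the reads of a gene cannot be told from these libraries. In such bulk libraries, fewer cells of a type and less RNA per cell cannot be told apart. The part of these differences in the results below was not tested.

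At this stage 23 of the 51 genes were expressed in the controls and 28 in the Brg1cKO pair. Expressed here means read in the sorted cells as a whole, of whatever type. These are 45.1% and 54.9% of the genes, where 52.4% and 57.8% of the 21896 protein-coding genes met the same threshold. The overlap was 21 genes, and 21 others were expressed in neither group. Pcdh15 and Ush1c met the threshold in the controls only. Tprn, Cib2, Gipc3, Gjb2, Esrrb, Mitf and Coch met it in the Brg1cKO pair only, as did 1479 protein-coding genes, against 290 that met it in the controls only. At least 1 read was found for 32 and 34 of the 51 genes in the control pair and for 38 and 40 in the Brg1cKO pair. Over all identifiers they were 17266 and 17086 for the control pair and 20859 and 20902 for the Brg1cKO pair, also higher in the latter. The numbers for the 51 genes were the same in each library after all were thinned to 15357265 reads.

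**Figure D2:**
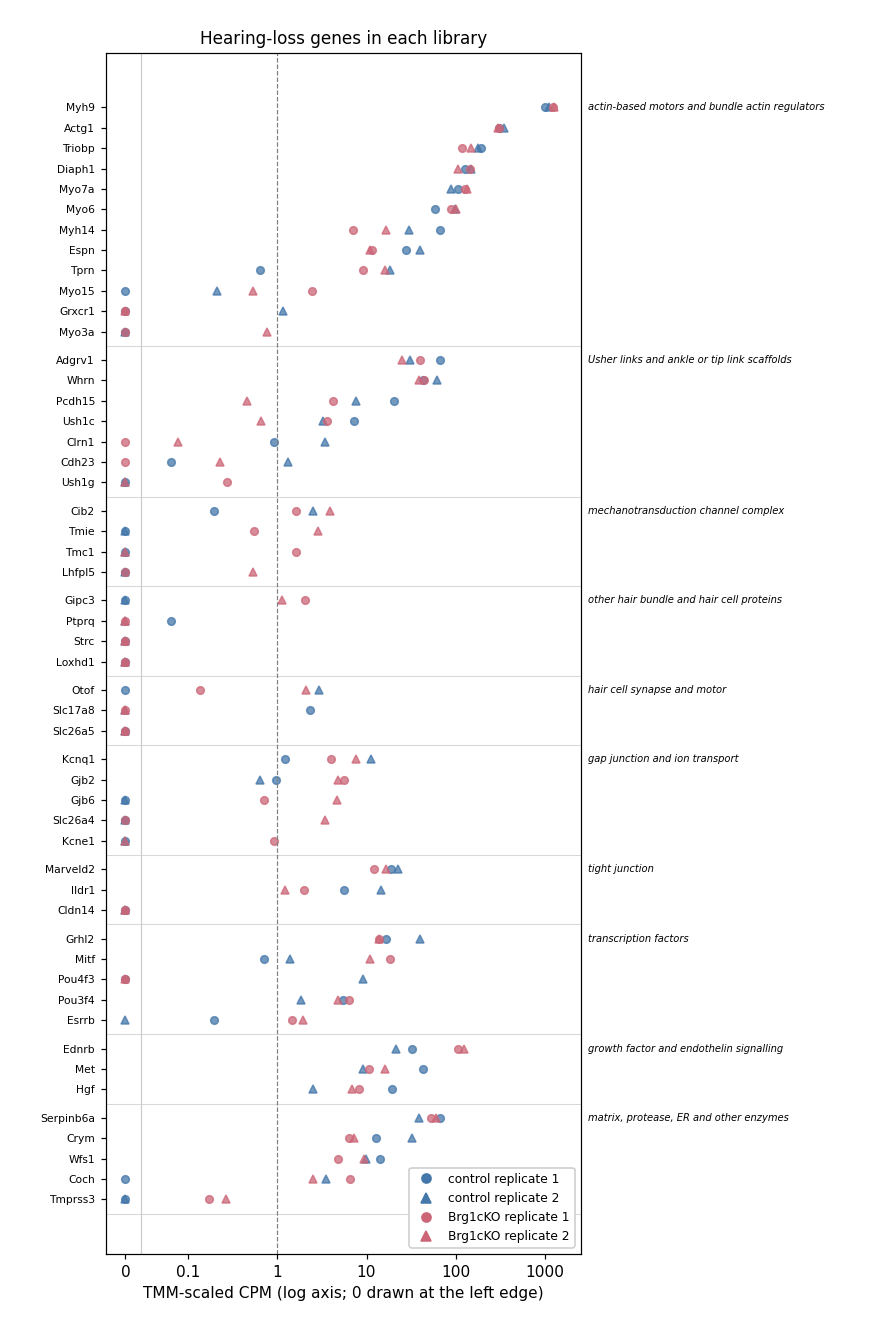
TMM-scaled CPM of the 51 deafness genes in each of the 4 libraries (log x axis, with 0 drawn at the left edge), grouped by role. Blue points are control and red points Brg1cKO libraries, circles are replicate 1 and triangles replicate 2, and the dashed line is 1 CPM. Myh9 and Actg1 lie furthest to the right, and many hair cell genes lie at or near 0.

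Levels between genes were compared per kilobase of exon (RPKM, the scaled CPM divided by the merged exon length). In the control mean, 5 of the 51 genes reached 10 RPKM, 19 lay between 1 and 10, and 27 lay under 1, where the median protein-coding gene stood at 1.60. The order was led by cytoskeletal genes of wide use. Actg1 stood at 115 and 129 RPKM in the control pair and 114 and 112 RPKM in the Brg1cKO pair, and Myh9 at 76.4 and 85.7 RPKM and 94.2 and 97.1 RPKM. Diaph1, Triobp and Myo7a followed with control means of 21.7, 14.95 and 11.3 RPKM. The control values of these 5 genes did not overlap from one to the next in that order. Below them, from Serpinb6a at 9.71 RPKM to Marveld2 at 6.12 RPKM, each of 7 genes overlapped its neighbours in that order in the controls, and Serpinb6a also overlapped Myo7a.

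Read support was sporadic for many of the rest. Strc, Loxhd1, Slc26a5 and Cldn14 had 0 reads in all 4 libraries, 27 of the 51 genes had reads in all 4, and 20 had reads in 1 to 3. With 3 reads as the limit that a count of 0 allows, a gene at 0 could stand at up to 0.195 CPM in control replicate 1, the shallowest library, and 0.102 CPM in Brg1cKO replicate 1, the deepest. Those limits cover counting error only. Several genes had no read in 1 replicate and 10 or more in the other. In the controls these were Grxcr1 (0 and 22 reads), Otof (0 and 56), Slc17a8 (36 and 0), Pou4f3 (0 and 172) and Coch (0 and 66). In the Brg1cKO pair they were Myo3a (0 and 20 reads), Tmc1 (48 and 0), Lhfpl5 (0 and 14), Slc26a4 (0 and 88) and Kcne1 (27 and 0). Over all identifiers, 3027 showed this pattern in the controls and 2556 in the Brg1cKO pair. Differences of that kind lie beyond what counting error gives, and for these genes 1 library carried the whole group value.

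The comparison of the Brg1cKO pair with the controls asks how the levels of the deafness genes differ between the labelled groups. Of the 51 genes, 35 passed the low-count filter and were tested with edgeR's quasi-likelihood model across 16557 genes. None rose and none fell at a Benjamini-Hochberg adjusted p under 0.05, in a comparison where 0.0302% of all tested genes were called (0.0121% higher and 0.0181% lower). The smallest adjusted p among the deafness genes was 0.124, for Ednrb. At an unadjusted edgeR p under 0.05 there were 8 genes. Of these, 6 were higher in the Brg1cKO pair (Myh9, Tmie, Gipc3, Gjb6, Mitf and Ednrb), where 7.66% of all tested genes met that rule. Espn and Myh14 were lower, where 4.8% of all tested genes met it. With DESeq2, which called 14.6% of all tested genes, 5 deafness genes passed as higher (Tmie, Gipc3, Gjb6, Mitf and Ednrb) and 5 as lower (Espn, Triobp, Myh14, Clrn1 and Ildr1). Of these, Tmie, Gipc3, Gjb6 and Clrn1 passed the low-count filter through 1 group only. The alternatives limma voom and the newer edgeR moderation, which called 0.326% and 0.423% of all tested genes, called no deafness gene. Without control replicate 1, edgeR called Mitf and Ednrb higher and 5 genes lower, and without control replicate 2, 5 higher and 5 lower. Those fits called 17.6% and 16.9% of all their tested genes. In them the spread comes from the Brg1cKO pair alone and the lone control is assumed to vary like it. Log2 ratios between replicates had an SD of 0.901 in the Brg1cKO pair and 1.65 in the controls.

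The tested genes were also described by whether the 2 groups overlapped. In 10 of the 35 both Brg1cKO libraries lay above both controls, as they did in 26.3% of all tested genes. In 11 they lay below both, as in 17.8% of all tested genes, and in 14 the groups overlapped. The median log2 fold change was -0.11, beside 0.03 over all tested genes. It turned to 0.23 with limma voom and 0.16 with the replicate number as a block, where the median of all genes was 0.16 in each. It was 0.01 and 0.15 without control replicate 1 or 2, where that of all genes was 0.29. Tmie, Gipc3, Gjb6, Myo15 and Esrrb passed the low-count filter only through the Brg1cKO pair, and Clrn1 only through the controls, so these 6 had to differ. Without them, 5 genes were higher and 10 lower. Over all genes, 928 passed only through the Brg1cKO pair and 158 only through the controls. The shares above include those genes and no share without them was computed, so these counts cannot be set beside all genes. No such count is a measure of all 51 genes. Among the 20 genes whose average log2 CPM reached 3, 14 had a negative log2 fold change and the median was -0.50. Over the 11081 genes of that abundance the median was -0.02. In 9 of the 20 both Brg1cKO libraries lay below both controls (21.8% of genes of that abundance did), and in 3 they lay above (23.2%).

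**Figure D3:**
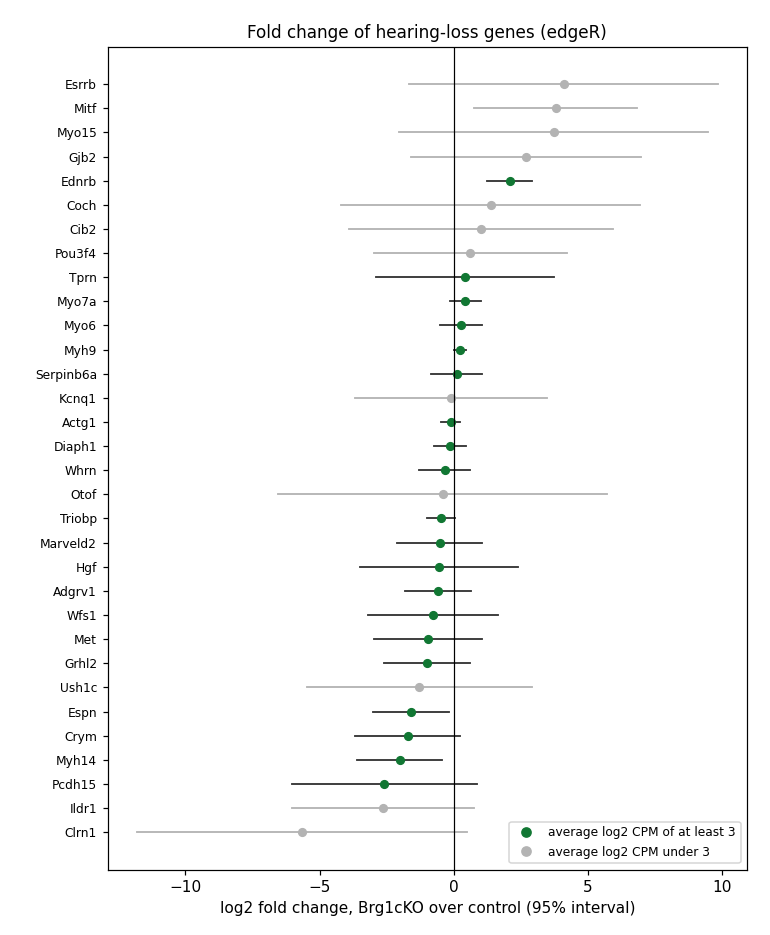
Log2 fold change of Brg1cKO over control (x axis) with its 95% interval from edgeR, for the 32 tested deafness genes that had reads in both groups. Green points are genes whose average log2 CPM reached 3 and grey points those below it, and the intervals of Mitf, Ednrb, Myh9, Espn and Myh14 leave out 0.

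**Figure D4:**
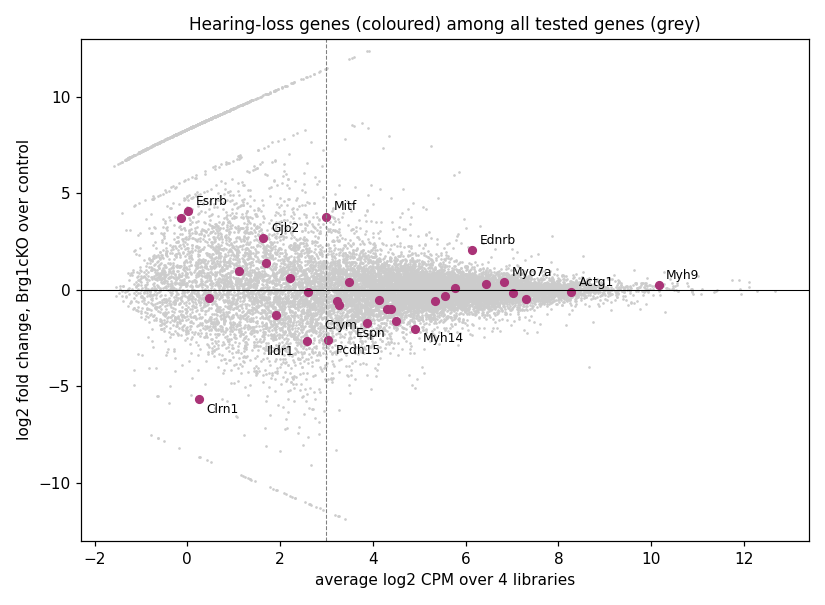
Log2 fold change of Brg1cKO over control (y axis) against average log2 CPM over the 4 libraries (x axis) for all 16557 tested genes in grey, with the 32 deafness genes that had reads in both groups coloured. The spread of all genes narrows with abundance, and Ednrb, at 2.08, lies in the upper part of genes of like abundance.

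Of the actin-based motors and bundle actin regulators, 8 of 12 were expressed in the controls and 9 in the Brg1cKO pair. Of the 10 tested, 3 lay higher in both Brg1cKO libraries and 4 lower in both, beside 26.3% and 17.8% of all tested genes. Counts over the few tested genes of a role, here and below, do not show a direction of that role. Myh9 (mm10 chr15:77760587-77842175), the heavy chain of non-muscle myosin IIA, stood at 987 and 1108 CPM in the control pair and 1218 and 1255 CPM in the Brg1cKO pair. Its groups did not overlap, with a small log2 fold change of 0.24 (SE 0.0984, edgeR adjusted p = 0.381). Myo7a, the myosin of the hair bundle mutated in Usher syndrome, stood at 106 and 88.2 CPM in the control pair and 127 and 133 CPM in the Brg1cKO pair. The Brg1cKO pair was the higher, with a log2 fold change of 0.42 (SE 0.244, edgeR adjusted p = 0.590). Myo6, the myosin that walks towards the minus end of actin filaments, stood at 58.3 and 97.1 CPM and at 89.2 and 100.01 CPM, and its groups overlapped (log2 fold change 0.28).

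Another 5 genes of the same set were Espn, Myh14, Triobp and Actg1, lower in both Brg1cKO libraries, and Diaph1, with overlapping groups. Espn (mm10 chr4:152120331-152152371), which bundles the actin of stereocilia, stood at 27.7 and 39.5 CPM in the control pair and 11.4 and 10.8 CPM in the Brg1cKO pair. Both controls lay above both others, with a log2 fold change of -1.59 (SE 0.598, edgeR adjusted p = 0.368). Myh14 (mm10 chr7:44605803-44670843), the heavy chain of non-muscle myosin IIC, stood at 65.7 and 29.5 CPM in the control pair and 7.10 and 16.5 CPM in the Brg1cKO pair. Its groups did not overlap either, although the controls differed among themselves, and the log2 fold change was -2.01 (SE 0.671, 95% interval -3.59 to -0.43, edgeR adjusted p = 0.368). It ran from -2.74 without Brg1cKO replicate 2 to -1.31 without control replicate 1. Triobp, the bundler of stereocilia rootlets, stood at 192 and 176 CPM in the control pair and 118 and 147 CPM in the Brg1cKO pair. The controls were again the higher pair, with a log2 fold change of -0.48 (SE 0.214, edgeR adjusted p = 0.439). Actg1, the cytoplasmic gamma-actin, stood at 305 and 342 CPM in the control pair and 303 and 297 CPM in the Brg1cKO pair. The pairs lay close (log2 fold change -0.11, 95% interval -0.46 to 0.24), and the count is uncertain because actin paralogs and pseudogenes are near-identical. Diaph1, a formin that elongates actin filaments, stood at 125 and 149 CPM and at 144 and 106 CPM, with overlapping groups.

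The remaining genes of that set were low or uneven. Tprn, the taperin found at the base of stereocilia, stood at 0.65 and 18.4 CPM in the control pair and 9.19 and 16.2 CPM in the Brg1cKO pair. The controls alone spanned both other values, and the 95% interval of the log2 fold change ran from -2.91 to 3.75. Myo15, which carries whirlin to the tips of stereocilia, stood at 0 and 0.212 CPM in the control pair and 2.46 and 0.540 CPM in the Brg1cKO pair. Myo3a had reads only in Brg1cKO replicate 2 and Grxcr1 only in control replicate 2.

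Of the 7 genes of the Usher links and their scaffolds, 4 were expressed in the controls and 2 in the Brg1cKO pair. Of the 5 tested, 2 lay lower in both Brg1cKO libraries and none higher, beside 17.8% and 26.3% of all tested genes. Whrn, the whirlin scaffold whose CG-rich upstream sequence is printed above, stood at 42.8 and 62.2 CPM in the control pair and 44.2 and 38.7 CPM in the Brg1cKO pair. Adgrv1, the large adhesion receptor of the ankle links, stood at 65.5 and 31.0 CPM and at 39.1 and 24.6 CPM. Both overlapped between the groups, with 95% intervals of -1.28 to 0.60 and -1.83 to 0.64 on the log2 scale. The cadherins of the tip link were lower in level. Pcdh15 stood at 20.3 and 7.53 CPM in the control pair and 4.17 and 0.463 CPM in the Brg1cKO pair. Its groups did not overlap, but each pair spanned a wide range, and the log2 fold change was -2.59 (SE 1.46, 95% interval -6.04 to 0.87, edgeR adjusted p = 0.581). It ran from -4.88 without Brg1cKO replicate 1 to -1.70 without control replicate 1. Its tip link partner Cdh23 stood at 0.065 and 1.33 CPM and at 0 and 0.231 CPM, and was not tested. Ush1c, the harmonin scaffold, ranged from 0.656 to 7.15 CPM with overlapping groups. Clrn1, the membrane protein clarin, stood at 0.909 and 3.45 CPM in the control pair and 0 and 0.0771 CPM in the Brg1cKO pair, at most 2 reads in the latter. Ush1g had 8 reads, all in Brg1cKO replicate 1.

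The mechanotransduction channel complex was low in level, with no value above 3.90 CPM in any library. None of its 4 genes was expressed in the controls and 1, Cib2, in the Brg1cKO pair. Tmc1, the channel subunit shown above with a single CG upstream, had 48 reads in Brg1cKO replicate 1 and none elsewhere, and Lhfpl5, a partner of the channel, had 14 reads in Brg1cKO replicate 2 and none elsewhere. Tmie, another partner, had 0 reads in both controls and stood at 0.546 and 2.89 CPM in the Brg1cKO pair. It passed the low-count filter only through that pair, so it had to be higher there. It was at least 18.8-fold higher there, against a floor of 3 reads over both controls (edgeR adjusted p = 0.368). Against that floor Brg1cKO replicate 1 alone was at least 6.24-fold and replicate 2 at least 33.0-fold higher, and 7.89% of its exon length is shared with Als2cl. Cib2, a calcium-binding subunit, stood at 0.195 and 2.55 CPM and at 1.61 and 3.90 CPM, with overlapping groups, and shares 15.8% of its exon length with Sh2d7 on the opposite strand. The sources used here give no strand setting for the counting, so reads of such pairs cannot be told apart.

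Other hair cell genes were similarly sparse. Strc and Loxhd1 had no read in any library, and Ptprq, a receptor phosphatase of the stereocilia shaft, had 1 read in all. Gipc3, a PDZ-domain protein, had 0 reads in both controls and stood at 2.05 and 1.12 CPM in the Brg1cKO pair. It too passed the low-count filter only through that pair. Against the same floor it was at least 18.4-fold higher (edgeR adjusted p = 0.368), or at least 23.4-fold and 12.8-fold by library. Among the genes of the synapse and motor, Slc26a5, the prestin motor of outer hair cells, had no reads, and its upstream sequence holds 13 CG dinucleotides. Otof, the calcium sensor of vesicle release, stood at 0 and 2.97 CPM in the control pair and 0.137 and 2.08 CPM in the Brg1cKO pair. Slc17a8, the vesicular glutamate transporter of inner hair cells, was read in control replicate 1 only. As a check of the cell type, the 9 markers of differentiated hair cells summed to 2.53 and 1.49 CPM in the control pair and 7.58 and 6.87 CPM in the Brg1cKO pair. Of these markers, 8 were at 0 in both controls, and 3 (Cabp2, Chrna10 and Ocm) were at 0 in all libraries. The control sums were Calb2 alone, at 39 and 28 reads there and 1 and 26 reads in the Brg1cKO pair. The Brg1cKO sums were close but came mostly from different markers. Chrna9 had 124 and 0 reads in that pair, Atoh1 82 and 6, Lhx3 15 and 109, and Pvalb 0 and 32. The higher sums are therefore not a rise shared by the markers. The share of hair cell RNA in the hair cell values above was not tested.

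Gap junction and ion transport genes were low in the controls, with 1 of 5 expressed there and 2 in the Brg1cKO pair. Of the 3 tested, both connexins lay higher in both Brg1cKO libraries, where 26.3% of all tested genes did. Gjb2, the connexin most often mutated in inherited deafness, stood at 0.974 and 0.637 CPM in the control pair and 5.64 and 4.82 CPM in the Brg1cKO pair. Its neighbour on the same chromosome, Gjb6, had 0 reads in both controls and stood at 0.717 and 4.63 CPM. Gjb6 passed the low-count filter only through the Brg1cKO pair, so it had to be higher there. Its direction is then no support for that of Gjb2. Neither gene was called. Gjb2 had a log2 fold change of 2.69 (SE 1.83, edgeR adjusted p = 0.676). Gjb6 was at least 29.1-fold higher (edgeR adjusted p = 0.368), or at least 8.19-fold and 52.8-fold in Brg1cKO replicates 1 and 2. Kcnq1, a potassium channel of the stria vascularis, stood at 1.23 and 11.2 CPM in the control pair and 3.96 and 7.56 CPM in the Brg1cKO pair, with overlapping groups, and shares 2.96% of its exon length with the antisense Kcnq1ot1. Its partner subunit Kcne1 and the anion exchanger Slc26a4 each had reads in 1 Brg1cKO library and none in the controls.

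Both tested tight junction genes lay lower in both Brg1cKO libraries, where 17.8% of all tested genes did. Both were expressed in both groups. Marveld2, the tricellulin of tricellular junctions, stood at 18.7 and 22.7 CPM in the control pair and 12.1 and 16.7 CPM in the Brg1cKO pair. Ildr1, which recruits tricellulin, stood at 5.65 and 14.5 CPM and at 1.98 and 1.23 CPM. Neither difference passed, with log2 fold changes of -0.52 (SE 0.674, edgeR adjusted p = 0.856) and -2.64 (SE 1.45, edgeR adjusted p = 0.561). Cldn14 had no reads.

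Transcription factors divided in direction. Mitf (mm10 chr6:97807052-98021349), the regulator of melanocyte fate, stood at 0.715 and 1.38 CPM in the control pair and 18.5 and 10.95 CPM in the Brg1cKO pair. Both of the latter lay far above both controls, with a log2 fold change of 3.80 (SE 1.29, 95% interval 0.76 to 6.84, edgeR adjusted p = 0.368). It was called with DESeq2 and in the fits without either control, where the Brg1cKO pair alone gives the spread, and under none of the other 12 alternatives. Esrrb, an orphan nuclear receptor, stood at 0.195 and 0 CPM in the control pair and 1.47 and 1.97 CPM in the Brg1cKO pair. Grhl2, which maintains epithelial junctions, stood at 16.4 and 39.4 CPM and at 13.9 and 13.8 CPM. It was lower in both Brg1cKO libraries by a margin small beside the distance between the controls (log2 fold change -1.01, SE 0.682, edgeR adjusted p = 0.674). Pou3f4, a factor of the mesenchyme around the otocyst, ranged from 1.86 to 6.32 CPM with overlapping groups. Pou4f3, required for hair cell survival, stood at 9.13 CPM in control replicate 2 and had no read in any other library.

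Among the 3 genes of growth factor and endothelin signalling, all were expressed in both groups. Ednrb (mm10 chr14:103814625-103844402), the endothelin receptor needed by melanoblasts and other neural crest cells, stood at 32.1 and 21.5 CPM in the control pair and 105 and 122 CPM in the Brg1cKO pair. The group means were 26.8 ± 7.46 and 113 ± 12.4 CPM (SD, n = 2 each), and the groups lay far apart. Its log2 fold change was 2.08 (SE 0.357, 95% interval 1.24 to 2.92), with an unadjusted p of 0.000587 and an adjusted p of 0.124 by edgeR's quasi-likelihood test with Benjamini-Hochberg adjustment. Per kilobase the group means were 6.29 and 26.6 RPKM, at percentiles 67.7 and 91.5 of protein-coding genes. The fold change lay between 1.80 and 2.40 under 15 alternatives. It was called under 5 of them, with adjusted p from 1.27e-11 without control replicate 1, where the Brg1cKO pair alone gives the spread, to 0.866 without Brg1cKO replicate 2, where the controls alone give it. Hgf, the ligand, stood at 19.4 and 2.55 CPM in the control pair and 8.13 and 6.83 CPM in the Brg1cKO pair. Hgf shares 6.74% of its exon length with Gm43489 on the same strand. Its receptor Met stood at 43.0 and 9.13 CPM and at 10.6 and 16.04 CPM. For both genes the controls spanned the other libraries, and control replicate 1 was the highest of all.

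Cells other than otic epithelium also express Ednrb and Mitf, so marker levels are given beside them. The 6 melanoblast markers summed to 55.8 and 114 CPM in the control pair and 82.8 and 55.7 CPM in the Brg1cKO pair, with overlapping groups. Most of that sum was Kit, at 40.0 and 101 CPM and at 71.2 and 48.4 CPM. The other markers of the list were low and went in different directions. Dct stood at 4.94 and 12.9 CPM in the control pair and 2.32 and 1.66 CPM in the Brg1cKO pair. Tyr had no reads in the controls and 13 and 54 reads in the Brg1cKO pair, Pmel stood at 10.8 and 0 CPM and at 8.81 and 3.55 CPM, and Mlana and Tyrp1 were at 0 in all libraries. The 6 markers of neural crest and Schwann cell precursors summed to 296 and 411 CPM in the control pair and 153 and 156 CPM in the Brg1cKO pair. Macrophage markers lay higher in both Brg1cKO libraries in 12 of 12 genes, and cardiac and striated muscle markers in 9 of 9. Endothelial markers summed to 2908 and 2853 CPM and to 3138 and 3095 CPM. The part of these cell types in the Ednrb and Mitf values was not tested.

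In the last set, 3 of 5 genes were expressed in the controls and 4 in the Brg1cKO pair. Of the 4 tested, 2 lay lower in both Brg1cKO libraries, where 17.8% of all tested genes did. Crym, a crystallin that binds thyroid hormone, stood at 12.8 and 32.3 CPM in the control pair and 6.35 and 7.33 CPM in the Brg1cKO pair. Its log2 fold change was -1.72 (SE 0.837, 95% interval -3.68 to 0.24, edgeR adjusted p = 0.486). Wfs1, the wolframin of the endoplasmic reticulum, stood at 14.2 and 9.97 CPM and at 4.82 and 9.37 CPM. The groups of Wfs1 did not overlap, though the nearest values were close. Serpinb6a, an intracellular protease inhibitor, stood at 66.6 and 38.5 CPM in the control pair and 52.8 and 60.5 CPM in the Brg1cKO pair, which lay between the controls. It shares 14.1% of its exon length with Nqo2 and 10.8% with 1110046J04Rik. Coch, the matrix protein cochlin, stood at 0 and 3.50 CPM and at 6.52 and 2.55 CPM, and Tmprss3, a serine protease, had 5 and 7 reads in the Brg1cKO pair and none in the controls.

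Beside the genes that were lower, all 12 otic epithelium markers had a log2 fold change under 0 (median -1.99), with 10 of 12 lower in both Brg1cKO libraries. The 10 deafness genes that passed the filter through both groups and were lower in both Brg1cKO libraries had log2 fold changes from -2.64 for Ildr1 to -0.11 for Actg1. Red blood cell markers summed to 622 and 652 CPM in the control pair and 223 and 207 CPM in the Brg1cKO pair, and neuronal markers to 1327 and 1343 CPM and to 447 and 379 CPM. The part of the otic share of the RNA in these lower values was not tested.

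A further list of 88 hearing-loss genes, with regulators of otic development among them, was read in the same fit. Of these, 66 were expressed in the controls and 67 in the Brg1cKO pair, and 9 had no reads in any library. Of the 76 tested, none was called at an adjusted p under 0.05, and the smallest was 0.0735. At an unadjusted edgeR p under 0.05, 6 were higher and 19 lower, where 7.66% and 4.8% of all tested genes were. Both Brg1cKO libraries lay above both controls in 11 and below them in 27, beside 26.3% and 17.8% of all tested genes. The median log2 fold change was -0.40. With DESeq2, 6 passed as higher and 20 as lower, and without control replicate 1 or 2 there were 8 and 9 higher and 20 and 21 lower.

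The genes of that list with the smallest p were not called but had groups that lay far apart. Eya1, a transcriptional coactivator of otic development, stood at 116 and 210 CPM in the control pair and 35.4 and 46.7 CPM in the Brg1cKO pair, with a log2 fold change of -1.99 (SE 0.364, edgeR adjusted p = 0.145). Eya4, of the same family, stood at 71.5 and 96.7 CPM in the control pair and 27.8 and 22.2 CPM in the Brg1cKO pair. Lmx1a, a factor of the dorsal otocyst, stood at 64.5 and 97.4 CPM and at 15.5 and 25.5 CPM. In these factors, as in Sox10 (log2 fold change -1.28), the Brg1cKO pair were the lower pair. Col9a2, a collagen chain of the extracellular matrix, stood at 206 and 326 CPM in the control pair and 65.6 and 46.2 CPM in the Brg1cKO pair, and Ror1, a Wnt receptor, at 84.5 and 149 CPM and at 28.8 and 18.0 CPM. Tnc, the extracellular matrix protein tenascin, was the 1 gene of those named in the other direction, at 61.5 and 52.1 CPM in the control pair and 217 and 219 CPM in the Brg1cKO pair. It had a log2 fold change of 1.94 (SE 0.228) and the smallest adjusted p of the list.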

How the data were processed

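For each of the 4 libraries the authors deposited whole-number read counts under Ensembl identifiers, not normalized. The submitters' processing notes name HISAT2, HTSeq, DESeq2 and mm10, without role or version. The annotation and strand setting used in counting were not given in the sources used here. Each table closes with 5 lines that name no gene. They held 51.8%, 50.7%, 36.0% and 36.3% of the records (control replicates 1 and 2, then Brg1cKO replicates 1 and 2) and were left out.

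Symbols, positions and exon lengths came from GENCODE release M21, which matched 52489 of 52636 identifiers. Genes passing filterByExpr (minimum count 10) were scaled by TMM and tested with the quasi-likelihood F-test of edgeR 4.0.16 in R 4.3.3 (robust moderation, group as the only term), with Benjamini-Hochberg adjustment over all tested genes. The model was tested on simulated data. limma 3.58.1 and DESeq2 1.42.0 served as alternatives. A fold against groups at 0 used a floor of 3 reads over the group. No library pair held identical counts. Genes given in every library passed the filter and had an average log2 CPM of at least 3 or an unadjusted p under 0.05, and further genes described were chosen after their values were seen. From the further list, the 8 with the smallest p were to be named, of which 1 is not reported here. The 51 genes and all lists were chosen with earlier results of these data known.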

Additional observations from a re-analysis of the deposited data

How the results depend on the processing

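Beside the 0 called by edgeR, the number of the 51 genes called higher was 1 with every gene of at least 1 count, 5 with DESeq2 and 1 with the replicate block, and 0 to 5 when 1 library was left out. The number called lower was 5 with DESeq2 and 0 to 5 with 1 library left out. Under the other settings run, including a minimum average CPM of 1 chosen after seeing the data, both were 0. Of all tested genes, 1.66% were called with every gene of at least 1 count, 14.6% with DESeq2 and 0.846% with the block. Voom called 0.326%, the newer edgeR moderation 0.423% and the minimum average CPM of 1 called 0.0679%. For the further list, 1 gene was called higher with every gene of at least 1 count, voom, the newer edgeR moderation, the minimum average CPM of 1 and the replicate block, and 6 with DESeq2. Lower calls in it numbered 10 when every gene with a count was tested, 20 with DESeq2, 1 with voom, 2 with the newer moderation and 4 with the block. An adjusted p under 0.10 gave 1 higher and 1 lower. Leaving out 1 library gave 0 to 9 higher and 1 to 21 lower.

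Groups that did not overlap numbered 5 higher with a minimum count of 50. With 1 library left out they ranged from 14 to 16 higher and 12 to 19 lower, where 1 library is easier to separate. The shares of all genes under these settings were not computed, so these counts cannot be set beside them. The median log2 fold change was 0.23 with voom and 0.16 with the replicate block, and -0.24 to 0.15 with 1 library left out. The replicate numbers are not stated to pair the libraries, and deviations of same-numbered libraries correlated at 0.005 across genes. With 1 library left out, the log2 fold change ranged from -0.03 to 0.68 for Myo6, -0.53 to 4.26 for Tprn, -1.06 to 0.05 for Adgrv1, -1.39 to 1.56 for Hgf and -1.71 to 0.55 for Met. These turned without control replicate 1, and Tprn also without Brg1cKO replicate 2 (-0.04). It ranged from -0.36 to 0.07 for Diaph1, which turned without Brg1cKO replicate 2, and -0.25 to 0.56 for Serpinb6a, which turned without control replicate 2. It kept its sign from -1.50 to -0.26 for Grhl2, -2.23 to -0.92 for Crym and -1.32 to -0.36 for Wfs1. Hgf also turned with voom (0.23) and the block (0.08). The causes were not tested. Counts of 0 in 1 of 2 replicates limit what these depths show for the least expressed genes.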
